A study of Mus musculus with 6 samples.

Results

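The genes described here are 9 transcription factors known from endothelial cells, the lining cells of blood and lymphatic vessels: Sox7, Sox17, Sox18, Erg, Fli1, Tal1, Klf2, Klf4 and Prox1. They were chosen by symbol from the 19321 genes named on the array, with the brightest probe taken for each gene. Every one of the 9 has 1 probe, and every probe was above background on 6 of 6 arrays.

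The SoxF factors (Sox7, Sox17 and Sox18) and the ETS factors (Erg and Fli1) bind enhancers of endothelial genes such as those for VE-cadherin and the VEGF receptors, and act with the basic helix-loop-helix factor Tal1 during vessel formation. Klf2 and Klf4 are zinc finger factors that laminar blood flow induces in the endothelium, where they raise Nos3 and Thbd. Prox1 sets the lymphatic endothelial identity and is low in blood vessels. In skeletal muscle most endothelial cells are those of the dense capillary bed around the fibres, and several of these factors also work elsewhere: Fli1 and Tal1 in blood cells, Klf2 and Klf4 in leukocytes and fibroblasts, and Prox1 in satellite cells and myofibres.

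RNA was measured on 6 one-colour arrays, 1 for each of 3 freshly sorted cell populations from C57BL/6 hind limb muscle at each of 2 ages. The populations were CD31+ or CD45+ cells (written CD31_CD45, a mixture of endothelial and hematopoietic cells), PDGFRa+ mesenchymal progenitors (interstitial cells able to form fibroblasts or fat) and satellite cells (the stem cells of the muscle fibre). Aged mice were 24 to 28 months old and young mice 8 to 10 weeks old, and no treatment or engineered allele is named in the labels. Cells of repeated sorts were pooled for each array, and the RNA was amplified before Cy5 labelling, so a population at one age is a single pool with no replicate.

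Levels below are the intensities of the value table deposited by the authors, in which the median probe of each array is 25 and the background limit lay between 0.663 and 0.911. Log2 differences come from a separate normalisation of the scanner values, which adds 50 before the logarithm and so understates the differences of dim genes. A gene was called between populations if limma's adjusted p was under 0.05 and the difference at least 2-fold, with the aged and the young array of a population as its 2 samples. The error of a gene is therefore the disagreement of 3 age pairs, on 2 residual degrees of freedom. Intensities of different genes come from different probes and are not set against each other.

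The sorts matched their labels, with 10 of 10 mesenchymal markers called higher in PDGFRa+ than in satellite cells and 10 of 10 satellite cell markers called lower. All 10 endothelial markers, 10 of 10 pan-hematopoietic markers and 10 of 10 macrophage markers were called higher in CD31_CD45 than in PDGFRa+ cells and than in satellite cells. The summed intensity of the endothelial markers was 24221 in aged and 32309 in young CD31_CD45 cells, against 431.1 and 428.1 in aged and young PDGFRa+ cells and 677.7 and 703.6 in aged and young satellite cells. In a mixed sort fewer endothelial cells and less RNA per endothelial cell cannot be told apart, and Fli1, Tal1, Klf2 and Klf4 RNA may come from either part of the mixture. The mixture also held red cell RNA, with 5 of 7 erythroid markers called higher in CD31_CD45 than in each of the other populations. Of 10 pericyte and smooth muscle markers, 5 were called higher in CD31_CD45 than in PDGFRa+ cells and 3 higher than in satellite cells. In each of these comparisons 1 of the 10 was called lower. The share of each cell type in the members' values was not tested.

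Across the 9 factors, 6 were called higher in CD31_CD45 than in PDGFRa+ cells, where 5.40% of the 18372 tested genes were, and 6 were called higher than in satellite cells, where 6.57% of tested genes were. They were the same 6 genes in both comparisons, namely Sox7, Sox17, Sox18, Fli1, Tal1 and Klf2. Of all tested genes, 4.55% were called higher in both. None of the 9 was called lower, where 4.70% of tested genes were lower than in PDGFRa+ cells and 5.12% lower than in satellite cells (10.1% and 11.7% called in either direction). The median log2 difference of the 9 was 2.38 over PDGFRa+ cells, beside -0.01 for all tested genes, and 2.75 over satellite cells, beside -0.02 for all tested genes. The differences of Klf4, Erg and Prox1 were under 2-fold on this scale. With the local background of each spot in place of the blank spots, 2 of the 9 were called over PDGFRa+ cells (Sox17 and Sox18) and 3 over satellite cells (Sox17, Sox18 and Klf2), where 1.57% and 1.86% of all tested genes were called in either direction. In the deposited intensities both CD31_CD45 arrays lay above the other 4 arrays for 7 of the 9 genes, the exceptions being Klf4 and Prox1, and this held for 19.4% of all tested genes.

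**Figure D1:**
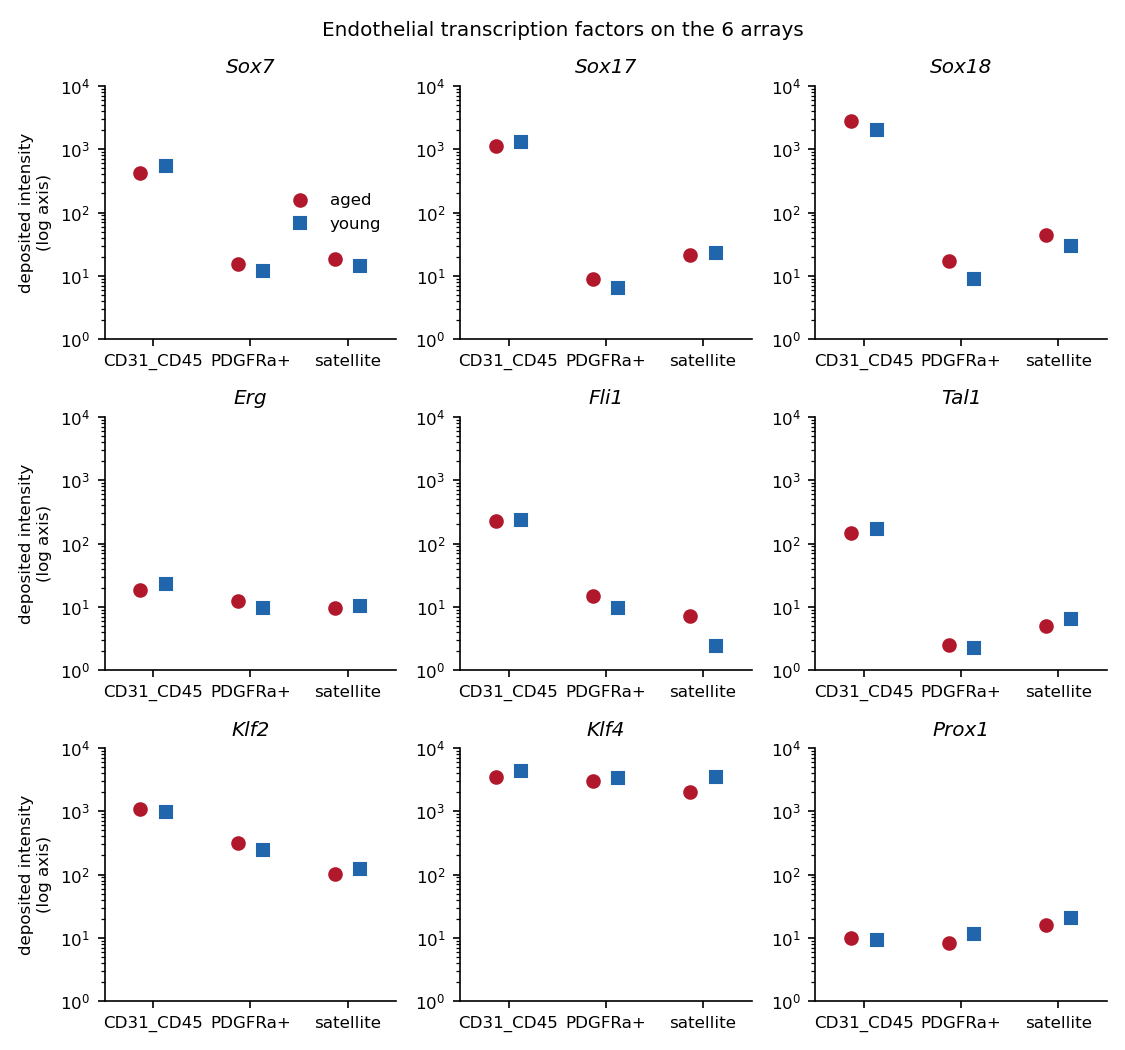
Deposited intensity (log axis, array median 25) of each of the 9 factors on each array, by population and age, 1 point per array with no error bar because there is 1 array per population and age. Sox7, Sox17, Sox18, Fli1 and Tal1 are at 146.6 or more on both CD31_CD45 arrays and at 44.5 or less on the other 4, while Klf4 is at 2022.8 or more on every array.

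The SoxF genes were each called in both comparisons. Sox18, whose loss of function disturbs vessel and hair follicle development in mice, had an intensity of 2792.8 in aged and 2049.8 in young CD31_CD45 cells, against 17.3 and 8.8 in aged and young PDGFRa+ cells and 44.5 and 29.8 in aged and young satellite cells. The groups did not overlap, and satellite cells of each age were above PDGFRa+ cells of the same age. The log2 difference was 5.81 (SE 0.12, limma adjusted p = 0.000894) over PDGFRa+ cells and 5.23 (SE 0.12, limma adjusted p = 0.000961) over satellite cells. On the linear scale the mean intensity in CD31_CD45 was 186 times that in PDGFRa+ cells and 65.2 times that in satellite cells.

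Sox17, a factor of arterial endothelium, had an intensity of 1117.3 in aged and 1303.1 in young CD31_CD45 cells, against 8.9 and 6.3 in aged and young PDGFRa+ cells and 21.2 and 23.1 in aged and young satellite cells. The groups did not overlap, and each of the 3 populations formed its own level. The log2 difference was 4.92 over PDGFRa+ cells (SE 0.07, limma adjusted p = 0.000862) and 4.49 over satellite cells (SE 0.07, limma adjusted p = 0.000829). Sox7, which overlaps in function with the other SoxF factors in vessel growth, had 427.5 in aged and 543.3 in young CD31_CD45 cells, against 15.3 and 12 in aged and young PDGFRa+ cells and 18.1 and 14.4 in aged and young satellite cells. Here the PDGFRa+ and satellite values were interleaved, and their log2 difference was -0.06 (SE 0.13, limma adjusted p = 0.829). The CD31_CD45 level was above PDGFRa+ cells by 3.41 on the log2 scale (SE 0.13, limma adjusted p = 0.00193) and above satellite cells by 3.35 (SE 0.13, limma adjusted p = 0.00176). With the scanner grouping described below as a block, the first of these was 3.25 at an adjusted p of 0.051 and was no longer called.

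Both ETS factors are pan-endothelial in the mouse, and their probes gave different pictures. Fli1, which also works in megakaryocytes and other blood cells, had an intensity of 225.7 in aged and 237.5 in young CD31_CD45 cells, against 14.6 and 9.4 in aged and young PDGFRa+ cells and 7.2 and 2.4 in aged and young satellite cells. The groups did not overlap, and the log2 difference was 2.49 over PDGFRa+ cells (SE 0.08, limma adjusted p = 0.00152) and 2.75 over satellite cells (SE 0.08, limma adjusted p = 0.00124). Erg, which keeps endothelial junctions and quiescence, had 18.2 in aged and 22.7 in young CD31_CD45 cells, against 12.4 and 9.7 in aged and young PDGFRa+ cells and 9.5 and 10.4 in aged and young satellite cells. The CD31_CD45 arrays were the highest pair, yet every value lay below the array median of 25. The Erg log2 difference was 0.25 over PDGFRa+ cells (95% interval 0.013 to 0.49, limma adjusted p = 0.110) and 0.30 over satellite cells (95% interval 0.06 to 0.54, limma adjusted p = 0.0668), so neither passed. On the linear scale the mean Erg intensity in CD31_CD45 was 1.85 times that in PDGFRa+ cells and 2.06 times that in satellite cells. A probe that hybridises weakly and a low transcript level cannot be told apart with 1 probe.

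Tal1, also called Scl, is needed for blood formation and for remodelling of vessels. Its intensity was 146.6 in aged and 172.4 in young CD31_CD45 cells, against 2.5 and 2.2 in aged and young PDGFRa+ cells and 4.9 and 6.3 in aged and young satellite cells. The groups did not overlap. The log2 difference was 2.38 over PDGFRa+ cells (SE 0.06, limma adjusted p = 0.00118) and 2.27 over satellite cells (SE 0.06, limma adjusted p = 0.00122). Because the values outside CD31_CD45 were close to the highest value of a negative control spot (2.5 to 5.59 over the arrays), the linear ratios of 67.9 over PDGFRa+ cells and 28.5 over satellite cells rest on near-background denominators. Tal1 is also an erythroid factor. The summed intensity of the 7 measured erythroid markers was 44884 in aged and 61947 in young CD31_CD45 cells. It was 3190 and 7116 in aged and young PDGFRa+ cells and 8817 and 6693 in aged and young satellite cells, so every sort held some red cell RNA. The part of erythroid cells in the Tal1 level was not tested.

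The windows around both annotated Tal1 starts are shown because ETS and GATA factors are known to act on this gene in blood and endothelial cells. They run from 250 bases before to 50 bases after each start (RefSeq, GRCm38.p6, plus strand, chr4:115056176-115056475 and chr4:115057561-115057860). Capitals mark matches on either strand to the ETS core, spelled GGAA. They also mark a GATA site, spelled AGATAA, and the box bound by KLF factors, spelled CACCC.
Tal1 start 1: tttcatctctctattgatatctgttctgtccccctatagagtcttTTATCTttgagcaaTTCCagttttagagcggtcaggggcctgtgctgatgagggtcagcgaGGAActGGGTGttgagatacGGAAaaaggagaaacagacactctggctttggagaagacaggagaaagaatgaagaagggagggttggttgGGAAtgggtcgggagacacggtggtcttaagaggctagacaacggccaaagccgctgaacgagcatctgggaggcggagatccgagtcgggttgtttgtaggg
Tal1 start 2: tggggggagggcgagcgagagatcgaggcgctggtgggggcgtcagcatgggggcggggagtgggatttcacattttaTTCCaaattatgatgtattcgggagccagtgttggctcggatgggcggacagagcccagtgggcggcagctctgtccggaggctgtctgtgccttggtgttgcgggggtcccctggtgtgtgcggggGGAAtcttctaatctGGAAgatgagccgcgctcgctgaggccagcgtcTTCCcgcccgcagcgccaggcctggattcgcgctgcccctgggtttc
The first window held 4 ETS cores, 1 GATA site and 1 CACCC box, and the second held 4 ETS cores and neither of the other motifs, with no overlap between matches. Of 32851 promoter windows of the same length, 95.98% held at least 1 ETS core, 11.18% the GATA site and 57.52% the CACCC box, and these motifs were picked with the sequences known.

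Klf2, which in endothelial cells drives Nos3 and Thbd and opposes inflammation, had an intensity of 1080.4 in aged and 959.5 in young CD31_CD45 cells, against 317.7 and 241.9 in aged and young PDGFRa+ cells and 100.2 and 123.8 in aged and young satellite cells. The 3 populations formed 3 levels with no overlap. The log2 difference was 1.84 over PDGFRa+ cells (SE 0.19, limma adjusted p = 0.0103) and 2.89 over satellite cells (SE 0.19, limma adjusted p = 0.00406). The call over PDGFRa+ cells was lost without the aged CD31_CD45 array (1.77, adjusted p = 0.0736), the young CD31_CD45 array (1.90, adjusted p = 0.0690) or the young PDGFRa+ array (1.61, adjusted p = 0.0644).

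Klf2 was also the 1 factor of 9 called between the other populations, higher in PDGFRa+ than in satellite cells, where 4.09% of tested genes were higher and 3.20% lower (7.29% either way). Its log2 difference there was 1.05 (SE 0.19, limma adjusted p = 0.0375). That call was lost when any one array other than the young satellite array was left out, with adjusted p-values of 0.0552 to 0.148, and the difference was 0.71 between the young arrays, which share a scanner grouping. Sox17 (-0.42, limma adjusted p = 0.0351), Sox18 (-0.59, limma adjusted p = 0.0476) and Prox1 (-0.24, limma adjusted p = 0.0482) passed the adjusted p in that comparison, on the lower side in PDGFRa+ cells, but were under 2-fold. Endothelial markers in the same comparison had a median of -0.61, with 1 of 10 called lower (Egfl7, at -1.43), and their part in the lower Sox17 and Sox18 values was not tested. Klf4 at 0.33, Fli1 at 0.26, Erg at 0.05 and Tal1 at -0.11 did not pass it (limma adjusted p = 0.0965 to 0.751). On the deposited intensities with 1 added, Sox17 at -1.44 and Sox18 at -1.48 passed both criteria.

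The window around the Klf2 start is shown because it carries the MEF2 site through which flow signals reach the gene (RefSeq, GRCm38.p6, plus strand, chr8:72318812-72319111). Capitals mark a match to the MEF2 consensus, which allows several letters at some positions, and the ETS core and CACCC box spelled above, all searched on both strands.
Klf2: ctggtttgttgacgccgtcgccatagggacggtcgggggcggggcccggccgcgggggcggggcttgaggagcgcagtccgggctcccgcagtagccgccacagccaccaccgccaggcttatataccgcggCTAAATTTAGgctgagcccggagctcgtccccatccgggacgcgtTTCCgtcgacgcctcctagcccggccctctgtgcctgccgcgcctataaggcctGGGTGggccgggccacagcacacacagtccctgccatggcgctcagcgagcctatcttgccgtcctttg
The window held 1 match to each, with no overlap. The MEF2 consensus was found in 1047 of the 32851 windows (3.19%). The window was 69.3% G and C with 32 CpG, against medians of 52.7% and 7 CpG over all windows. The table also holds windows for Erg, Klf4 and Prox1, and of these 1 of the 3 Erg windows matched the MEF2 consensus.

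Klf4, a factor of fibroblasts, leukocytes and many epithelia as well as endothelium, was bright on every array. Its intensity was 3488.6 in aged and 4322.0 in young CD31_CD45 cells, against 2967.6 and 3306.0 in aged and young PDGFRa+ cells and 2022.8 and 3523.3 in aged and young satellite cells. The groups overlapped, since the young satellite array lay above the aged CD31_CD45 array. The log2 difference was 0.50 over PDGFRa+ cells (95% interval 0.18 to 0.83, limma adjusted p = 0.0484) and 0.84 over satellite cells (95% interval 0.52 to 1.16, limma adjusted p = 0.0140), each under the 2-fold limit. Klf4 is also an early response gene of cell dissociation. Of 24 such genes, 1 was called higher and 3 lower in CD31_CD45 than in PDGFRa+ cells, where 5.40% and 4.70% of tested genes were. Over satellite cells 3 were called higher and 10 lower, where 6.57% and 5.12% of tested genes were.

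Prox1, like Erg and Klf4, was not called in either comparison with CD31_CD45. Its intensity was 9.8 in aged and 9.2 in young CD31_CD45 cells, against 8.2 and 11.5 in aged and young PDGFRa+ cells and 16.2 and 20.6 in aged and young satellite cells. The satellite arrays were the highest pair. The log2 difference of CD31_CD45 was -0.02 over PDGFRa+ cells (95% interval -0.17 to 0.13, limma adjusted p = 0.811) and -0.27 over satellite cells (95% interval -0.41 to -0.12, limma adjusted p = 0.0304), under 2-fold in both. Of 9 tested genes linked to lymphatic vessels, 2 were called higher in CD31_CD45 than in each of the other populations. They were Lyve1, a hyaluronan receptor that macrophages also carry, with log2 differences of 2.32 and 2.47 over PDGFRa+ and satellite cells, and Nrp2, a VEGF-C co-receptor also found on veins, with 2.28 and 3.17. Pdpn, the surface glycoprotein of lymphatic endothelium and of many fibroblasts, was called lower in both comparisons (-1.26 and -1.5). Fgl2, also on the list, was called lower than in PDGFRa+ cells (-1.66, limma adjusted p = 0.0497). Flt4, the receptor for VEGF-C, had an intensity of 14 in aged and 13.8 in young CD31_CD45 cells, against 2.4 or less on the other 4 arrays, and at 0.42 over PDGFRa+ cells was not called.

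**Figure D2:**
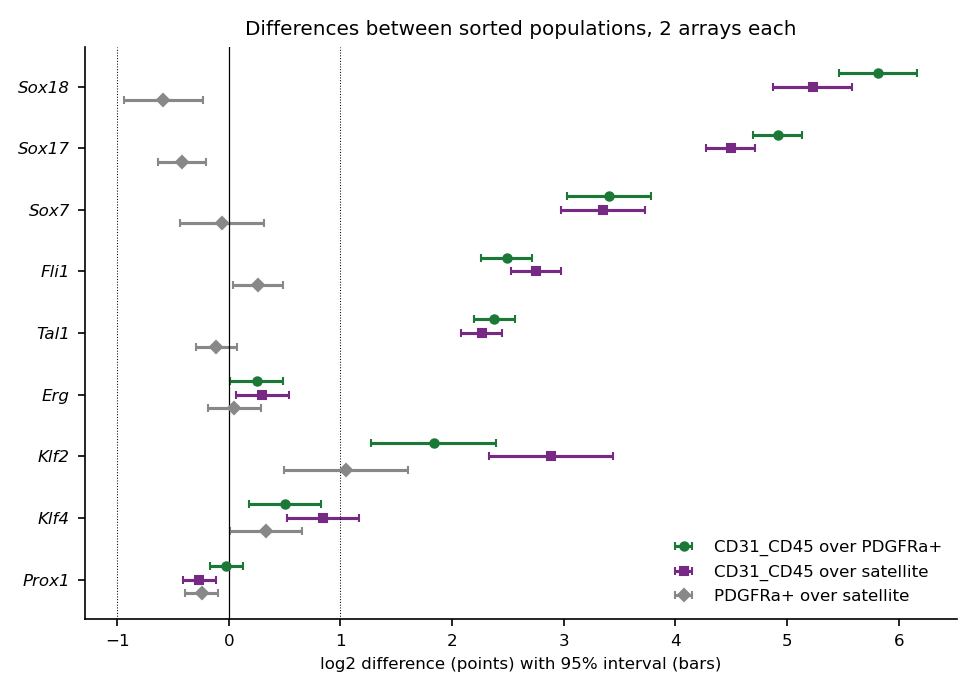
Log2 difference between populations for each of the 9 factors in the 3 comparisons, with 95% intervals from limma on 6 arrays. Dotted lines mark 2-fold, and marker shape and colour give the comparison, not the call. Sox18, Sox17, Sox7, Fli1, Tal1 and Klf2 are called in both CD31_CD45 comparisons and lie between 1.84 and 5.81, while Erg, Klf4 and Prox1 lie between -0.27 and 0.84.

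The arrays also differ in a scanner property. The slopes between scanner gains in the file headers fall into 2 groups of 3 arrays, one holding both PDGFRa+ arrays and the young satellite array, and the other holding both CD31_CD45 arrays and the aged satellite array. No CD31_CD45 array shares a group with a PDGFRa+ array, so for that comparison the grouping and the populations can be separated only through the satellite pair, where grouping and age coincide. Within a group, the aged CD31_CD45 array was above the aged satellite array by 5.42 log2 units for Sox18, 4.47 for Sox17, 3.16 for Sox7, 3.12 for Klf2, 2.65 for Fli1 and 2.21 for Tal1, with 1 array on each side and no test. Klf4 was at 0.96, Erg at 0.25 and Prox1 at -0.20 in the same pair. These 9 values, which are part of that fit, have the signs of the fitted differences over satellite cells. With the grouping as a block, 5 of the 9 were called higher over PDGFRa+ cells, Sox7 dropping out, and 6 over satellite cells, where 4.54% and 10.3% of all tested genes were called in either direction.

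Age was read at 2 levels. The difference common to the 3 populations (3 aged against 3 young arrays) was called for 0 of the 9 factors and for 0 of 18372 genes (0%) by limma's adjusted p and 2-fold, while 2 of the 9 and 2026 of all tested genes had an unadjusted p under 0.05. The 2 were Sox18, at a log2 difference of 0.43 (SE 0.10, unadjusted p = 0.0151, limma adjusted p = 0.367), and Klf4, at -0.35 (SE 0.09, unadjusted p = 0.0216, limma adjusted p = 0.382). Sox18 was higher in the aged array of all 3 pairs and Klf4 lower in the aged array of all 3, and neither passed the adjustment. With the local background Klf4 turned direction, at 0.48 for the common difference, 0.65 in the CD31_CD45 pair and 1.03 in the PDGFRa+ pair.

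Within a population there was a single array of each age, and no test could be made. On the normalised log2 scale 0 of 9 factors were 2-fold higher or lower in any pair. In the deposited intensities Fli1 had 7.2 in aged and 2.4 in young satellite cells, a ratio of 3.0 between dim values, and with the local background Klf2 (1.23) and Klf4 (1.03) passed 2-fold in the PDGFRa+ pair. Of all tested genes above background, 0.509% were 2-fold higher and 0.0657% lower in aged CD31_CD45 cells, 0.261% higher and 0.161% lower in aged PDGFRa+ cells, and 1.12% higher and 0.0990% lower in aged satellite cells. In the CD31_CD45 pair 3 of the 9 were higher in the aged array and 6 lower, with a median log2 difference of -0.10 beside -0.01 for all tested genes. Sox18 stood at 0.68, Klf2 at 0.26 and Prox1 at 0.01. Klf4 stood at -0.33, Sox7 at -0.27, Tal1 at -0.16, Erg at -0.14, Sox17 at -0.10 and Fli1 at -0.03. The SoxF genes were thus on both sides, Sox18 higher and Sox7 and Sox17 lower in the aged array.

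On the deposited scale Sox18 had 1.36 times the intensity in aged as in young CD31_CD45 cells. For its normalised log2 difference of 0.68, 221 of the 18372 tested genes (1.2%) were as high or higher in that pair, and over the alternative settings the difference ranged between 0.43 and 0.69. Of the endothelial markers 9 of 10 were lower in the aged CD31_CD45 array (median log2 difference -0.32), while 9 of 10 pan-hematopoietic markers (median 0.41) and 8 of 8 measured B and T cell markers (median 1.05) were higher. All 7 measured erythroid markers were lower in the aged CD31_CD45 array (median -0.37). Among 23 endothelial effector genes the highest aged over young difference in that pair was 0.48, for Plvap, the diaphragm protein of fenestrae and caveolae. Of 10 arterial genes, 6 were higher in the aged array (median of the 10 0.39, beside -0.01 for all tested genes). Among them were Gja4, a gap junction protein, at 0.86, and Bmx, a tyrosine kinase, at 0.73. The other 4 were lower, Nrp1 at -0.22, Efnb2 at -0.21, Dll4 at -0.10 and Hey1 at -0.04. The part of the cell mixture in the members' age differences was not tested.

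In the PDGFRa+ pair 7 of the 9 were higher in the aged array and 2 lower, with a median of 0.13 beside 0.00 for all tested genes. Klf2 stood at 0.48, Sox18 at 0.32, Fli1 at 0.21, Sox7 at 0.15, Sox17 and Erg at 0.13 and Tal1 at 0.03, and Klf4 stood at -0.18 and Prox1 at -0.07. The aged and the young satellite array lie in different scanner groups, so age and grouping cannot be told apart in that pair. The difference common to the 3 populations includes it. In the satellite pair 3 were higher and 6 lower, with a median of -0.05 beside -0.01. Sox18 stood at 0.31, Fli1 at 0.18 and Sox7 at 0.11, against Klf4 at -0.56, Klf2 at -0.21, Prox1 at -0.13, Sox17 at -0.06, Tal1 at -0.05 and Erg at -0.03. Klf4 had 0.574 times the intensity in aged as in young satellite cells. Of 24 early response genes, 17 were lower in the aged satellite array (median -0.27, beside -0.01 for all tested genes). In the aged PDGFRa+ array 12 of 24 were lower (median -0.02, beside 0.00), and in the aged CD31_CD45 array 19 of 24 (median -0.17, beside -0.01). The aged satellite array also had higher values for 10 of 10 mesenchymal markers (median 0.92), 9 of 10 pericyte and smooth muscle markers (1.01) and 7 of 7 myofibre markers (1.14). Their part in the satellite differences was not tested.

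**Figure D3:**
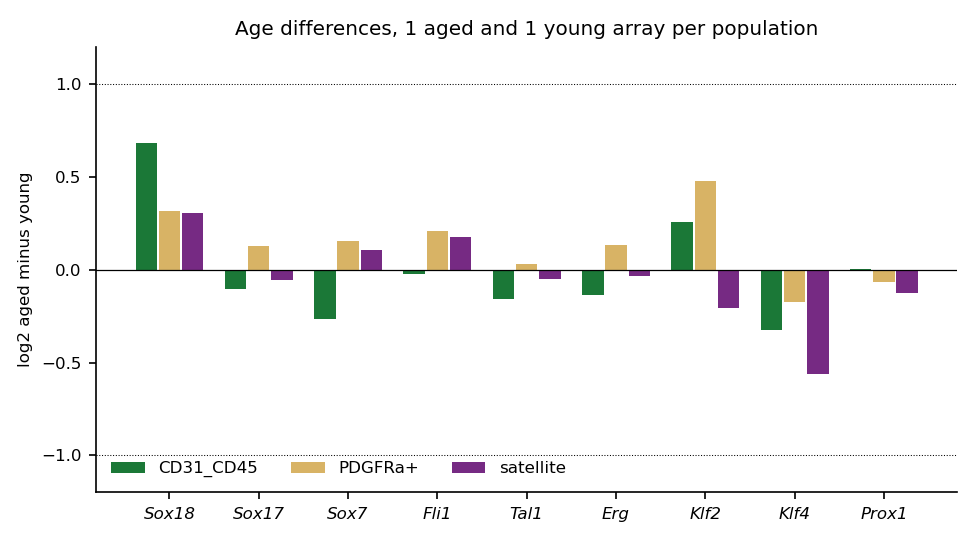
Bars give the log2 value of the aged array minus that of the young array for each factor in each population. Each bar is 1 pair of arrays, and dotted lines mark 2-fold. The aged and the young satellite array lie in different scanner groups. On this normalised scale, which adds 50 before the logarithm, no factor reaches 2-fold, the highest is Sox18 in CD31_CD45 at 0.68, and the lowest is Klf4 in satellite cells at -0.56.

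Other transcription factors of endothelial cells were taken as a list of 22, and all 22 were tested. In CD31_CD45, 11 were called higher than in PDGFRa+ cells and 12 higher than in satellite cells, 10 of them in both, and 0 were called lower. Their median log2 difference was 0.84 over PDGFRa+ cells and 1.10 over satellite cells. Tcf15, which with Meox2 marks capillary endothelium of heart and muscle, had an intensity of 1697.7 in aged and 2561.4 in young CD31_CD45 cells, against 15.4 and 25.2 in aged and young PDGFRa+ cells and 36.4 and 42.0 in aged and young satellite cells. It was called at 5.36 over PDGFRa+ cells (SE 0.15) and 4.94 over satellite cells (SE 0.15). Gata2, a partner of Tal1 in blood and endothelial cells, was called at 3.83 and 3.54 over the same populations.

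Some factors of that list followed one comparison and not the other. Meox2 was high in the mixture and in PDGFRa+ cells, with 1033.1 in aged and 1108.6 in young CD31_CD45 cells, against 1057.5 and 1416.8 in aged and young PDGFRa+ cells and 100.5 and 37.2 in aged and young satellite cells. It was called over satellite cells alone (3.51, limma adjusted p = 0.00835). Hey1, a Notch target of arteries, was called over PDGFRa+ cells (3.55, limma adjusted p = 0.00315) but not over satellite cells (0.41, limma adjusted p = 0.183). Ets2 was called at 3.46 and 2.09 and Bcl6b, an endothelial repressor, at 3.03 and 2.89 over PDGFRa+ and satellite cells. Lmo2, which bridges Tal1 and Gata2, was not called, at 0.23 over PDGFRa+ cells and -0.76 over satellite cells.

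**Figure D4:**
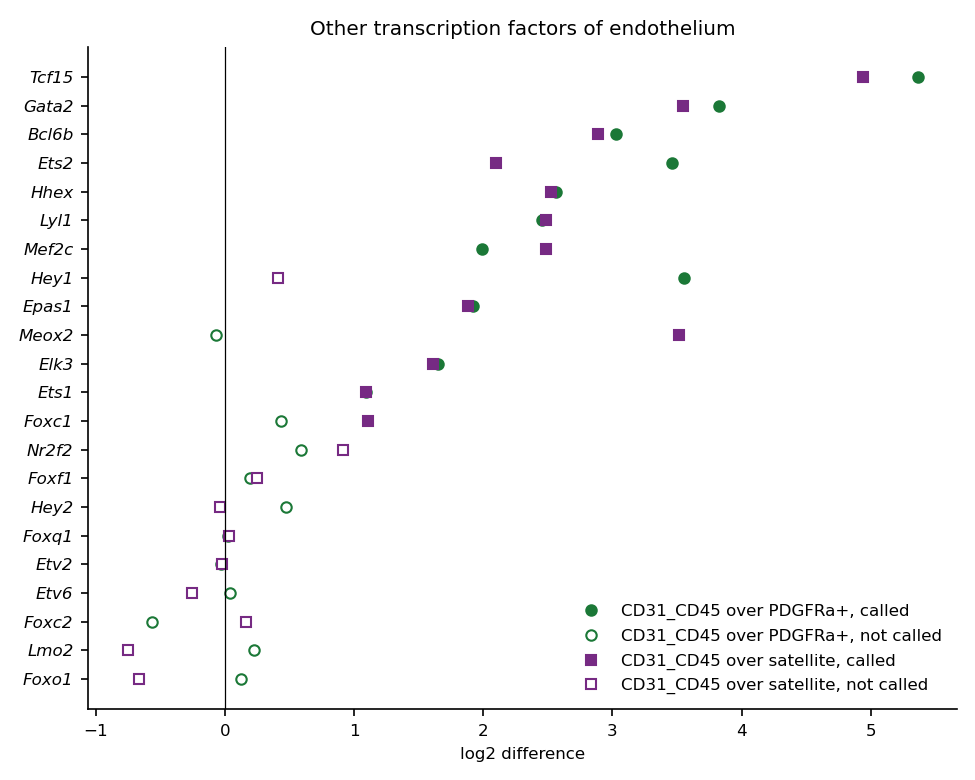
Log2 difference (horizontal axis) of CD31_CD45 over PDGFRa+ cells (circles) and over satellite cells (squares) for the 22 other endothelial factors, 1 row per gene. Filled points are called and open points are not. Tcf15 lies at 5.36 and 4.94, Meox2 is called over satellite cells only, and Hey1 over PDGFRa+ cells only.

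Effector genes of endothelial cells were read from a list of 23 tested genes. Whether the factors described here act on them in these cells was not tested. In CD31_CD45, 21 were called higher than in PDGFRa+ cells and 22 higher than in satellite cells, with medians of 5.03 and 4.65. Gpihbp1, which carries lipoprotein lipase to the capillary lumen, was at 7.16 over PDGFRa+ cells and 5.93 over satellite cells. Egfl7, a secreted vessel protein, was at 6.91 and 5.48, Flt1, a VEGF receptor, at 6.88 and 5.53, and Cldn5, a tight junction protein, at 6.48 and 5.57. Nos3, the endothelial nitric oxide synthase and a known target of Klf2, had 705.3 in aged and 751.1 in young CD31_CD45 cells, against 12.2 and 7.6 in aged and young PDGFRa+ cells and 29.4 and 23.6 in aged and young satellite cells. Thbd, the anticoagulant receptor thrombomodulin and another known target, had 520.6 in aged and 654.3 in young CD31_CD45 cells, against 608.3 and 490.9 in aged and young PDGFRa+ cells and 104.6 and 47.6 in aged and young satellite cells, and was not called over PDGFRa+ cells (limma adjusted p = 0.734). Vwf, the clotting protein of larger vessels, was not called in either comparison, at 0.07 over PDGFRa+ cells. Its intensity was 7.3 in aged and 5.9 in young CD31_CD45 cells and between 3.3 and 5.6 on the other arrays. These values are near the highest negative control spot (2.5 to 5.59 over the arrays), so the probe says little about Vwf.

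Of 10 arterial genes, 7 were called higher over PDGFRa+ cells and 6 over satellite cells, and of 8 venous genes, 5 were called higher in each comparison and Vcam1 was called lower than in satellite cells. Of 15 tested hematopoietic factors, 3 were called higher over PDGFRa+ cells (Spi1 at 2.10, Irf8 at 2.35 and Lyl1 at 2.45) and 2 over satellite cells (Spi1 at 1.99 and Lyl1 at 2.48). Lyl1, a close relative of Tal1, belongs to the endothelial list as well. Runx1, the factor by which blood cells arise from endothelium, was called lower in CD31_CD45 than in satellite cells (-1.63, limma adjusted p = 0.00826).

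The families of the 9 were also read beyond the members themselves. Of 21 other ETS genes, 4 were called higher in CD31_CD45 over PDGFRa+ cells (Ets1, Ets2, Elk3 and Spi1) and 5 over satellite cells (these and Elf1), with medians of -0.01 and 0.02. Ets1, Ets2 and Elk3 are also on the endothelial list above. Of 14 other KLF genes, Klf6 (1.34) and Klf13 (1.07) were called higher over PDGFRa+ cells, Klf3 (1.65) and Klf6 (1.12) higher over satellite cells, and Klf9 lower than in satellite cells (-1.31). Of 13 tested SOX genes outside the SoxF group, 0 were called higher, with 5.40% and 6.57% of tested genes higher in these comparisons, and Sox4 was called lower than in satellite cells (-1.5, limma adjusted p = 0.0424). The difference between the members and their families was not tested.

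**Figure D5:**
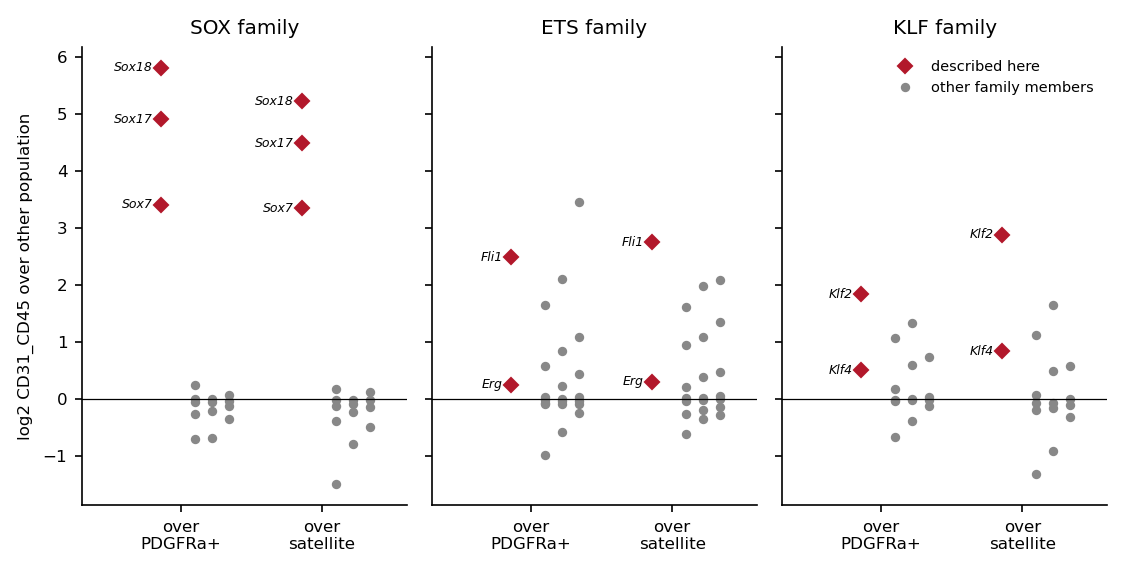
Log2 difference of CD31_CD45 over PDGFRa+ cells and over satellite cells for members of the SOX, ETS and KLF families, with diamonds for the factors described here and grey points for the rest of each family. Sox7, Sox17 and Sox18 lie between 3.35 and 5.81, while none of the 13 other SOX genes was called higher.

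The genes whose profile over the 6 arrays lay closest to each factor were found by the root mean square distance of log2 values after centring each gene on its own mean. The likeness is a description over 3 populations and 2 ages, and cell mixture is shared by all profiles. Sox17 lay closest to Icam2 (0.11), an adhesion molecule of endothelium, to Ptprb (0.13), the endothelial VE-PTP phosphatase, and to Myct1 (0.13). Sox18 lay closest to Pecam1 (0.19), which encodes the CD31 antigen used in the sort, then to Slc28a2 (0.26) and Adgrl4 (0.29), an endothelial adhesion receptor. Klf2 lay closest to Ramp2 (0.15), the adrenomedullin co-receptor, to Entpd1 (0.20), the ectoenzyme CD39 of endothelium and leukocytes, and to Clec14a (0.21). Sox7 lay closest to Prdm16 (0.07), Nt5c1b (0.09) and Pparg (0.12), Fli1 to Adcy4 (0.09), Lilrb4a (0.10) and Shank3 (0.10), and Tal1 to Fabp5 (0.06), Cytip (0.07) and Fnbp1l (0.07).

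A steep profile had few neighbours. Within a distance of 0.5 there were 32 genes for Sox18, 56 for Sox17, 184 for Sox7, 210 for Klf2, 383 for Fli1 and 477 for Tal1. The flat profiles had many, with 12320 for Klf4, 15220 for Erg and 15380 for Prox1, and their nearest genes were Psap, Idnk and Grasp for Klf4, Fam219a, Slc12a5 and Clec4g for Erg, and Xrcc3, Gm5939 and Mns1 for Prox1. Among the 9, the closest pair was Fli1 and Tal1 (0.23), followed by the flat profiles of Erg and Prox1 (0.24) and of Erg and Klf4 (0.29). Sox17 was 0.47 from Sox18 and 0.65 from Sox7. Fli1 was 1.11 from Erg and Klf2 was 0.89 from Klf4, both further than Fli1 from Tal1. The normalisation shrinks the differences of dim genes such as Erg, so the distance of Erg from Fli1 depends in part on probe brightness.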

How the data were processed

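The linear intensity tables were deposited by the authors with a median of 25 per array. Compared with the scanner values, they are the spot medians minus the 5% trimmed mean of 2736 blank spots, rescaled (largest difference 0.0938), and a cell was empty at or below 2 trimmed SD above that mean. Per the file headers, scanner intensities are spot medians at 635 nm merged from 3 gains. Here those medians went through normexp (limma; background the blank trimmed mean, offset 50), log2 and quantile normalisation. The local background follows its own spot's signal (r of logs 0.961 to 0.980 across spots) and was kept as an alternative. This choice, the members and the lists were made with earlier results of these data known.

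Of 23473 probes, 88.4% to 92.3% per array were above background. Platform annotation named 20690 probes, and 2783 without a name were not used. The brightest probe was taken for the 1283 genes with several. Genes above background on at least 2 arrays (18372) were fitted with limma 3.58.1 in R 4.3.3 (population and age as terms, two-sided, Benjamini-Hochberg adjustment over all tested genes). The p-values rest on how far the age differences of the populations disagree, and no spread between repeated pools was measured. From each list up to 4 called genes with the largest difference in a comparison were to be named. Others that the text names were added with their values seen. The fit was tested on simulated arrays with independent noise and no age or scanner difference, so that test does not cover either of these. The number of arrays limits the precision.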

Additional observations from a re-analysis of the deposited data

How the results depend on the processing

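No paired analysis was possible because the labels carry no replicate numbers. The fit has age as a term, so populations were already compared within age. The 6 calls over satellite cells and over PDGFRa+ cells rest on the choice of background: with the local background of each spot, 3 and 2 members were called, 342 genes in all (against 2147) and 289 (against 1857). The cause was not tested. Sox17 and Sox18 were the members called there over PDGFRa+ cells, and leaving out single arrays gave 5 or 6 members over PDGFRa+ cells and 6 over satellite cells. For PDGFRa+ over satellite cells, where 1 member was called, 0 were with the local background or with the scanner block, 2 with an offset of 10, 3 on the deposited table, and 0 to 1 without single arrays. At least 2-fold with age, against 0, were 2 members in the PDGFRa+ pair with the local background and 1 in the satellite pair on the deposited table (Fli1, 1.27).

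Counts of all genes called moved by more than 1.5 times to 3790, 4429 and 2981 on the deposited table, 2945, 3382 and 2213 with an offset of 10 (for CD31_CD45 over PDGFRa+ cells, CD31_CD45 over satellite cells, and PDGFRa+ over satellite cells, where 68 were called with the local background against 1339). With the scanner block 835 were called over PDGFRa+ cells and 1131 without the young PDGFRa+ array. Without either PDGFRa+ array 0 were called for PDGFRa+ over satellite cells by limma.

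Differences that were not called turned sign. With the local background these were Fli1 (-0.25), Klf4 (0.48) and Tal1 (0.15) for aged over young, and Prox1 over satellite cells in CD31_CD45 (0.018) and PDGFRa+ (0.052). Within pairs, aged minus young turned with that setting for Klf4 in CD31_CD45 (0.65) and PDGFRa+ (1.03), Klf2 in satellite cells (0.61), Tal1 in CD31_CD45 (0.36) and satellite cells (0.027), and Erg (-0.029) and Sox7 (-0.077) in PDGFRa+ cells. For aged over young Sox7 gave 0.060 without background correction, 0.092 with an offset of 10, 0.097 on the deposited table and -0.080 to 0.13 without single arrays. Sox17 gave 0.021, 0.043 and 0.033 with the same 3 settings, 0.012 with the block and -0.078 to 0.036 without single arrays, and Erg gave -0.085 to 0.049 without single arrays. For PDGFRa+ over satellite cells leaving out single arrays gave -0.058 to 0.16 for Erg and -0.17 to 0.059 for Sox7, which gave 0.023 with the block. Prox1 in CD31_CD45 over PDGFRa+ cells gave 0.074 with the block and -0.073 to 0.029 without single arrays. None of the tested differences among these was called, and the pairs have no test.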
